A study of Homo sapiens with 24 samples.

Results

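Dense clusters of S100A8/A9-Flag sites are stretches of the genome in which many ChIP sites follow each other at short distances. They were chosen by peak calls: the ChIP sites of all conditions were merged into 30322 union sites, union sites with neighboring summits close together were joined into groups, and groups with 5 or more sites were kept. This gave 415 clusters among 20891 groups, and they hold 2666 of the 30322 union sites (8.79%). The widest gap joined was 12498 bp and the narrowest not joined 12504 bp. This joining distance is that commonly used to define super-enhancers, but super-enhancers are ranked by enhancer marks, and no histone modification is in the lists used here. Whether the clusters are super-enhancers was therefore not tested, and they are called dense clusters.

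S100A8 and S100A9 are small calcium-binding proteins that form a heterodimer, act outside the cell as inflammatory signals, and were examined here for association with chromatin. They have no known DNA binding domain, so that a site need not hold a sequence they recognize themselves. Super-enhancers are groups of enhancers that lie close together near genes of cell identity and of strong induction, and bind many transcription factors and coactivators at once. In mammary epithelial cells, AP-1 (dimers of FOS and JUN family proteins) is a main factor at such enhancers.

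The cells were MCF-10A, a nontransformed human mammary epithelial line, with ER-Src, a v-Src kinase fused to the hormone-binding part of the estrogen receptor that tamoxifen switches on. Retroviral vectors had added the coding sequence of S100A8 or of S100A9 with a Flag tag at its C terminus, and all libraries were made with an antibody against Flag. Cells expressing S100A8-Flag or S100A9-Flag received 1 μM 4-hydroxytamoxifen (TAM) for 24 hours, which transforms them, or the ethanol vehicle (EtOH). The 11 lists comprise 2 biological replicates of S100A8-Flag cells in EtOH and 3 replicates of each other condition. A site was called in a library where a peak with q ≤ 1e-07 overlapped it. EtOH libraries held 1853 to 4609 such peaks and TAM libraries 21518 to 40735, the most in replicate 3 of S100A9-Flag TAM. Read numbers are not in the lists, so that a lower depth and weaker binding cannot be told apart.

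Sequences around summits are shown for sites chosen by their number of calls, which do not stand for all cluster sites. The largest cluster lies over LAMB3 (laminin β3, a chain of the laminin that anchors epithelial cells to the basement membrane) and its neighbor CAMK1G, a calmodulin-dependent kinase, at chr1:209775338-209847566 (GRCh37). Its 8 sites called in all 6 TAM libraries are shown on the plus strand, with 50 bases on either side of the summit. Capitals mark matches on either strand to the consensus motifs searched, here only AP-1 (TGAGTCA), which 5 of the 8 windows hold. Within 100 bp of the summit, AP-1 was found at 7 of all 25 sites of this cluster and at 24.3% of all cluster sites. Site 20 held a C/EBP match within that distance.
LAMB3 cluster, site 2, chr1:209780874-209780974: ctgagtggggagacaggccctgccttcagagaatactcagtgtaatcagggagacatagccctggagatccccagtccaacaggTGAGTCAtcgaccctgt
LAMB3 cluster, site 3, chr1:209783266-209783366: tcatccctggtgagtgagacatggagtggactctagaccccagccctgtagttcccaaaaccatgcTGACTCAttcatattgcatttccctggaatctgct
LAMB3 cluster, site 18, chr1:209826488-209826588: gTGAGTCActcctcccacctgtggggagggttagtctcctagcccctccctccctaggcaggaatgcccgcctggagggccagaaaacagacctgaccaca
LAMB3 cluster, site 19, chr1:209829254-209829354: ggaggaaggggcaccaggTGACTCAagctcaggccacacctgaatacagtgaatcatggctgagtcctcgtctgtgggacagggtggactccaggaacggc
LAMB3 cluster, site 24, chr1:209846813-209846913: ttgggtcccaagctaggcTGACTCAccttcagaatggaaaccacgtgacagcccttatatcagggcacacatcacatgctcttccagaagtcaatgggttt
LAMB3 cluster, site 4, chr1:209785250-209785350: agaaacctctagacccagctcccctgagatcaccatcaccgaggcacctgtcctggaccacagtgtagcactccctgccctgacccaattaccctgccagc
LAMB3 cluster, site 17, chr1:209825831-209825931: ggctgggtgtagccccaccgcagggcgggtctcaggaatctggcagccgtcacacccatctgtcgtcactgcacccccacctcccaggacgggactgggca
LAMB3 cluster, site 20, chr1:209830569-209830669: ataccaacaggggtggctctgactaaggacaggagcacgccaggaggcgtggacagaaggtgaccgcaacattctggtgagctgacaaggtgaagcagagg

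In 14 other clusters described below, the site called in most libraries of its cluster was read the same way. No motif was found in 7 of these windows, among them those at KRT7, SLC16A3, KAZALD1, and PTMA, and the 7 with a match are shown because they hold different motifs. The capitals mark AP-1 in the TNS4 cluster, TEAD (GGAATGT) in the PER1 cluster, KLF/SP1 (CCCCGCCC) in the MIDN cluster, and C/EBP (TTGCNNAA) in the S100A6 cluster. The site before the S100A9 start has KLF/SP1 and ETS (CGGAAG), the site in PRR7 has CTCF and ETS, and the site 69 bp before the TRIM41 start has GGTTCGA, the first 7 bases of the B box inside tRNA genes. Within 100 bp of the summit, the KRT7 site held AP-1, the KAZALD1 site C/EBP, and the sites of the CRTC2 and HSPA6 clusters ETS. The sites at SLC16A3, PTMA, and near EIF1 held no searched motif within that distance either. Besides TEAD, the PER1 site held ETS, KLF/SP1, and CREB (TGACGTCA) within it.
TNS4 cluster, site 10, chr17:38666596-38666696: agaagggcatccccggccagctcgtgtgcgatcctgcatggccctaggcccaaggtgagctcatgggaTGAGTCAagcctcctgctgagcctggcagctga
PER1 cluster, site 13, chr17:8057678-8057778: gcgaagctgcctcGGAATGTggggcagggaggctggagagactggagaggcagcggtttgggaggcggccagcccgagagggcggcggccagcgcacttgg
MIDN cluster, site 4, chr19:1252400-1252500: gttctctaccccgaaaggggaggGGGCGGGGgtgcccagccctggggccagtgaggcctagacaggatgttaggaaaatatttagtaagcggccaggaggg
S100A6 cluster, site 8, chr1:153499702-153499802: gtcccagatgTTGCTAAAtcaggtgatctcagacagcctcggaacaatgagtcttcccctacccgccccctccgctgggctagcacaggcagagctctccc
S100A9 cluster, site 2, chr1:153330180-153330280: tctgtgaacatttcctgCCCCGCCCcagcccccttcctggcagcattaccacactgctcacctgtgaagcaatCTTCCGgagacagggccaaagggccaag
PRR7 cluster, site 4, chr5:176882464-176882564: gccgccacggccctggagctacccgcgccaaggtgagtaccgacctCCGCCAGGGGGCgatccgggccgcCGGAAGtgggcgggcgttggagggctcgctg
TRIM7 and TRIM41 cluster, site 6, chr5:180649380-180649480: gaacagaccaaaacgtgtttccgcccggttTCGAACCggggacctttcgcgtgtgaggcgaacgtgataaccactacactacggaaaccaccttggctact

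Most clusters were near the lower bound of 5 sites. There were 187 clusters with 5 sites, just inside the threshold, and 407 groups with 4, just outside it. The median cluster had 6 sites over 24639 bp, and spans ran from 3809 to 104943 bp. The median gap between neighboring summits was 3938 bp, and 13.8% of the gaps were 1000 bp or less. Clusters with 10 or more sites numbered 30. In total the clusters spanned 10.96 Mb, of which the sites themselves covered a median of 11.3% per cluster. Sites in clusters were wider than other sites, with a median of 409 against 336 bp, and richer in G and C, with a median of 59.7% against 56.2% of the bases within 100 bp of the summit.

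**Figure D1:**
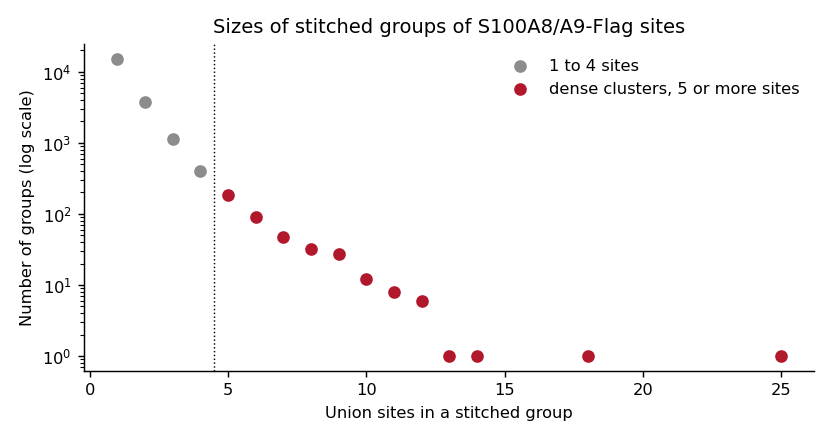
Number of stitched groups (log scale) against the number of union sites in a group. Red points are the 415 dense clusters with 5 or more sites and grey points the smaller groups. The number of groups falls from 15231 single sites to 187 groups of 5, and 1 group has 25 sites.

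The clusters rest on the large number of TAM peaks. No cluster was found when the sites of either EtOH condition were stitched alone, which numbered 1225 for S100A8-Flag and 1394 for S100A9-Flag. Peaks of single EtOH libraries, stitched without the demand for a second replicate, gave 2 to 6 clusters, and those of single TAM libraries 155 to 727. The 18407 sites of S100A8-Flag TAM gave 132 clusters and the 25133 sites of S100A9-Flag TAM gave 271. When each library was limited to its 1853 peaks with the lowest q values, the union held 1 cluster in place of 415. In single lists limited to these 1853 peaks, 0 of 2 S100A8-Flag EtOH libraries, 1 of 3 S100A8-Flag TAM libraries, 2 of 3 S100A9-Flag EtOH libraries, and 0 of 3 S100A9-Flag TAM libraries had any run of 5 peaks. The share of peaks in such runs was at most 0.594%, and it was 0.10 percentage points lower in TAM than in EtOH as a mean over both proteins, a difference within the replicate spread (exact permutation test, two-sided, p = 0.64, adjusted p = 0.8 over 5 tests). With at most 2 runs per library, lists of this length could show only a large difference.

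Clusters held sites of promoters and of distal regions side by side. A site was promoter-proximal where its summit lay at most 1500 bp before or 250 bp after a protein-coding transcription start site (TSS), and distal otherwise. Of the 415 clusters, 300 had both kinds, 109 had only distal sites, and 6 had only promoter-proximal sites. Promoter-proximal sites made up 26.5% of cluster sites and 29.8% of other sites, and the difference of 3.25 points turned to 0.586 points in favor of clusters when promoters were taken as 2 kb on either side of a TSS. Summits in introns made up 31.6% of cluster sites and 32.1% of other sites, and intergenic summits 36.4% and 34.8%. Exons away from promoters held 5.48% of cluster summits and 3.41% of other summits. Cluster sites lay closer to genes, with 92.5% of summits within 50 kb of a TSS against 73.9% of other summits. No gene body lay under 58 clusters, 1 lay under 147, and 2 or more lay under 210.

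Chromosomes differed in their share. Chromosome 1 held 83 clusters with 14.9% of its union sites, and chromosome 19 held 43, the highest density at 7.27 per 10 Mb. Chromosome 15 held 29 clusters with 12.1% of its sites and 5.92 protein-coding genes per Mb. The X chromosome held none, and chromosome 18 held 1. Among windows of 5 Mb, the first of chromosome 19 had 13 clusters, and the windows from 150 to 155 Mb and from 205 to 210 Mb of chromosome 1 had 12 each. The latter holds the LAMB3 cluster and has 55 protein-coding gene starts, against 164 in the former. The number of copies of these regions in MCF-10A–ER-Src cells was not measured, and its part in the peaks was not tested.

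The LAMB3 cluster had 25 sites over 72229 bp, 14 of them in LAMB3 or within 1500 bp of it. S100A8-Flag TAM libraries called 20, 13, and 15 of the 25 sites and S100A9-Flag TAM libraries 15, 16, and 22. The EtOH libraries called 4 and 1 sites for S100A8-Flag and 3, 1, and 1 for S100A9-Flag. The treatments did not overlap here, nor at sites outside clusters, of which TAM libraries called 51.3 to 83.8% and EtOH libraries 4.97 to 12.1%. Site 18, upstream of the LAMB3 start with an AP-1 match, was the only one called in 2 or more EtOH libraries. Its fold enrichment over input was 9.15 and 11.2 in the S100A8-Flag EtOH libraries and 10.1, 9.85, and 5.24 in the S100A8-Flag TAM libraries. In S100A9-Flag it was 7.73 and 6.4 in the EtOH libraries that called it, and 15.1, 10.1, and 11.1 in TAM. The intergenic site 19, 3534 bp from a TSS, was called in no EtOH library and in all 6 TAM libraries, with fold enrichments of 3.93 to 15.1. Counted from the left, sites 5 to 15 lay in introns of LAMB3, and each was called in only 3 or 4 TAM libraries. The last sites, 24 and 25, lay 1894 and 1374 bp from the nearest start, that of G0S2, an inhibitor of lipolysis, and 6 and 3 TAM libraries called them.

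**Figure D2:**
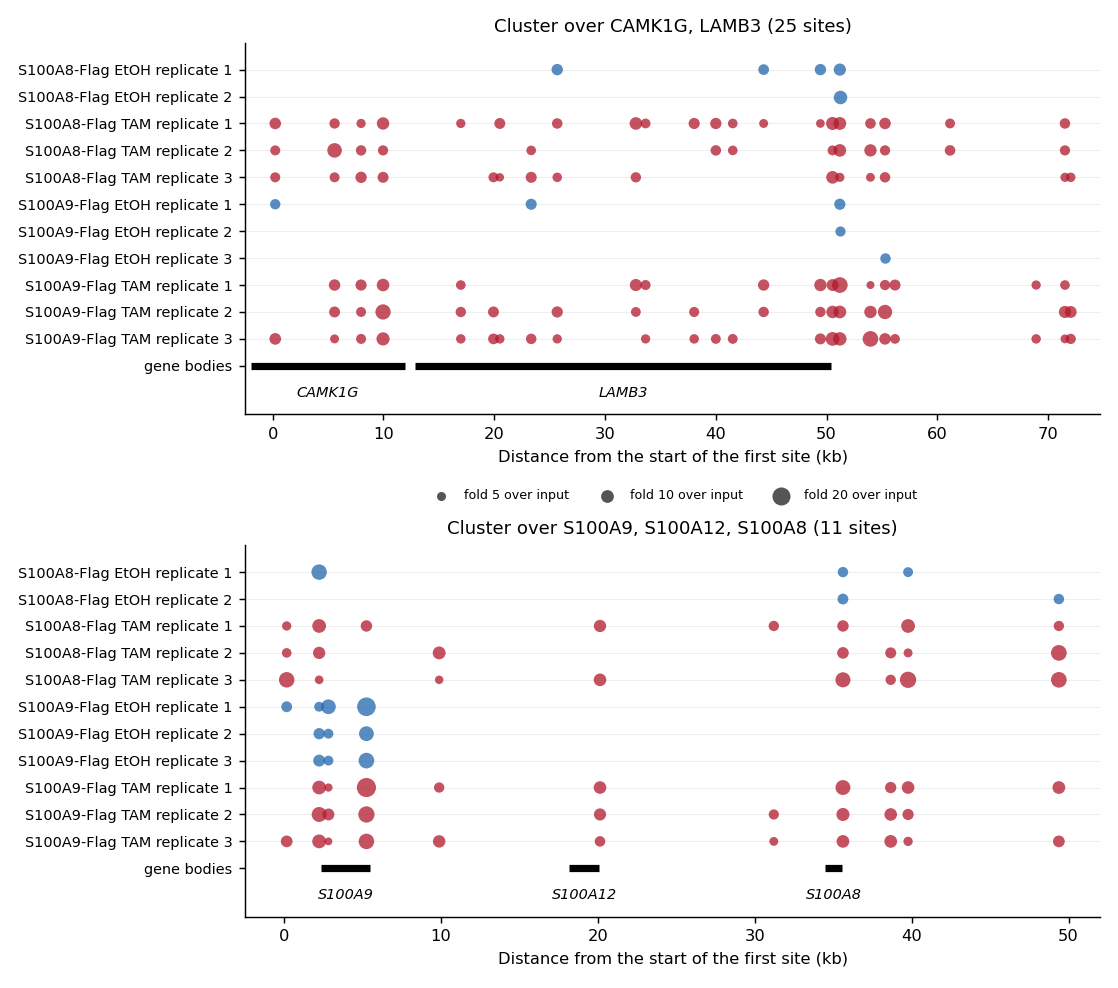
Peaks with q ≤ 1e-07 at each site of the LAMB3 cluster (25 sites, upper panel) and of the cluster over S100A9, S100A12, and S100A8 (11 sites, lower panel), 1 row per library. The x axis is the distance in kb from the start of the first site, the area of a point is the fold enrichment over input, EtOH is blue, TAM is red, and black bars are gene bodies. TAM rows hold 13 to 22 points in the upper panel and 7 to 11 in the lower panel, EtOH rows 1 to 4 and 2 to 4.

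The next largest clusters had 12 to 18 sites. The widest cluster, 104943 bp with 18 sites, ran over KRT80 and KRT7 (epithelial intermediate filament proteins), and 11 to 14 of its sites were called per TAM library against 1 to 4 per EtOH library. A cluster of 14 sites lay over PER1 (a repressor of the circadian clock), HES7, and ALOXE3, with 6 to 12 sites called in TAM and 1 to 5 in EtOH. A cluster of 13 sites lay over CTSB (the lysosomal protease cathepsin B) and FDFT1, with 3 to 11 sites called in TAM and 1 in each EtOH library.

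Clusters of 12 sites lay over TNS4 (an adaptor of focal adhesions), over SLC16A3 (a lactate transporter) with CSNK1D and CCDC57, and over MIDN with CIRBP. Others with 12 sites lay over KAZALD1 with SFXN3 and PDZD7, over CRTC2 with RAB13 and their neighbors, and over S100A6, S100A5, S100A4, and S100A3. The CRTC2 cluster was made of promoters, 9 of its 12 sites, whereas 11 of the 12 sites at TNS4 were distal. A distal TNS4 site with an AP-1 match, 8771 bp from a TSS, was called in all 11 libraries. Fold enrichments there ranged from 7.37 to 11.3 among EtOH libraries and from 7.06 to 17.7 among TAM libraries, so that the treatments overlap. In each of these 10 largest clusters every TAM library called more sites than any EtOH library. The ranges came closest at KAZALD1, with 5 sites in the lowest TAM and 4 in the highest EtOH library, and at PER1, with 6 and 5. At sites outside clusters the treatments did not overlap either, with 51.3 to 83.8% called in TAM libraries and 4.97 to 12.1% in EtOH libraries. The 10 clusters were built mainly from TAM peaks, so that the order of treatments in them is a description only.

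The genes of the tagged proteins lay in a dense cluster themselves. The cluster at chr1:153328004-153377538 covered S100A9, S100A12, and S100A8 with 11 sites. TAM libraries called 8, 7, and 8 sites for S100A8-Flag and 9, 8, and 11 for S100A9-Flag, and EtOH libraries called 3 and 2 and 4, 3, and 3. The site 100 bp from the S100A9 start, whose sequence is given above, was called in all 6 TAM libraries and in 4 of 5 EtOH libraries. The site at the S100A8 start was called in all 6 TAM libraries and in the 2 S100A8-Flag EtOH libraries, at fold enrichments of 6.66 and 7.23 in the latter and 8.06 to 13.9 in TAM. The S100A8-Flag cells carry an added S100A8 coding sequence, whose part in the calls at this site was not tested.

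Sites 3 and 4 of this cluster lay over S100A9 exons and followed the tagged protein more than the treatment. Site 4 had fold enrichments of 21.3, 13.4, and 15.03 in the S100A9-Flag EtOH libraries and 22.6, 16.2, and 14.8 in the TAM libraries, and 1 of the 5 S100A8-Flag libraries called it. Site 3 was called in all 6 S100A9-Flag libraries and in 0 S100A8-Flag libraries. The S100A9-Flag cells carry an added S100A9 coding sequence, whose part in these peaks was not tested. Without these 2 sites, 9 sites remained with a largest gap of 11080 bp, so that they still made a dense cluster.

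Some clusters had many of their sites called in EtOH. At PRR7 and DBN1 (drebrin, an actin-binding protein), EtOH libraries called a mean of 52% and TAM libraries 86.7% of 5 sites within 10174 bp. The means were 51.4 and 76.2% at TRIM7 and TRIM41, 48 and 80% at FCGR2A and HSPA6 (a heat-inducible chaperone), and 40 and 72.2% at PTMA. The share of 40% was also that of 5 sites over GAS6 and TMEM255B and of 5 sites over HARS1, HARS2, and ZMAT2, where TAM libraries called 73.3 and 86.7%. They were 42.9 and 78.6% at 7 distal sites near EIF1, a translation initiation factor, of which 1 site was called in all 11 libraries with fold enrichments of 5.44 to 43.2. These clusters were picked for their EtOH calls, so that their shares are not compared with others.

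In calls at the clusters as a whole, which the selection used and which are therefore only described, EtOH libraries called 7.13 to 16.2% of the 2666 cluster sites and 4.97 to 12.1% of the other sites. TAM libraries called 54.5 to 86.1% and 51.3 to 83.8%. Sites called in 1 or more EtOH libraries were 39.0% of cluster sites, against 31.1% of all union sites, and sites called in 2 or more were 17.4%, against 12% of all. Sites called in all 6 TAM libraries were 20.1% of cluster sites and 14.3% of all union sites. There were 37 clusters with no site called in EtOH, and the largest of these was the 11-site cluster over PXN (paxillin, a focal adhesion scaffold), of which TAM libraries called 2 to 8 sites. No cluster had every site called in all 6 TAM libraries.

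Calls within a cluster were scattered among libraries. A TAM library called a median of 57.1 to 85.7% of a cluster's sites, and 9 to 171 of the 415 clusters in full, with the 171 in replicate 3 of S100A9-Flag TAM. An EtOH library called at least 1 site in 33.5 to 61.7% of the clusters, and 1 cluster in full in 1 of the 5 libraries. S100A9-Flag TAM libraries called a larger mean share of the sites than S100A8-Flag TAM libraries in 310 clusters and a smaller one in 60, with a median difference of 13.3 points. Without replicate 3 of S100A9-Flag TAM these were 261 and 130 clusters and 7.14 points. The mean shares were 74.4 and 60.8% of cluster sites and 70.4 and 55.1% of other sites, so that S100A9-Flag TAM libraries called more sites outside clusters as well.

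Whether cluster sites are called more often than others was tested with libraries the selection had not used. For each library, union sites and clusters were rebuilt from the other 10 libraries, and the share of sites called in the library left out was compared between cluster sites and other sites. Cluster sites were called more often in 11 of 11 libraries, by 2.24 to 9.84 percentage points and by 5.79 ± 2.71 (SD, n = 11) on average (exact sign-flip test, two-sided, p = 0.000977, the smallest that 11 libraries allow, adjusted p = 0.00244). The 11 values share most of the libraries from which sites were built and are not fully independent.

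The excess was larger at distal sites. Distal cluster sites were called more often than other distal sites by 8.25 ± 3.69 points (SD, n = 11), in 11 of 11 libraries. At promoter-proximal sites the difference was 1.14 ± 1.59 points and positive in 9 of 11 (exact sign-flip test, two-sided, p = 0.041). This split was chosen after the data were seen. The distal difference was larger than the promoter-proximal one by 7.12 points (exact sign-flip test, two-sided, p = 0.000977). In S100A9-Flag EtOH replicate 2, the shortest list, 5.77% of distal cluster sites and 2.54% of other distal sites were called, and in S100A9-Flag TAM replicate 3, the longest, 81.6% and 74.6%. Compared within 10 bins of GC content the difference over all sites was 3.76 points, and within 10 bins of site width it was 2.19 points, with 1 library at −0.0098. The difference was thus smaller among sites of like GC content or like width.

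**Figure D3:**
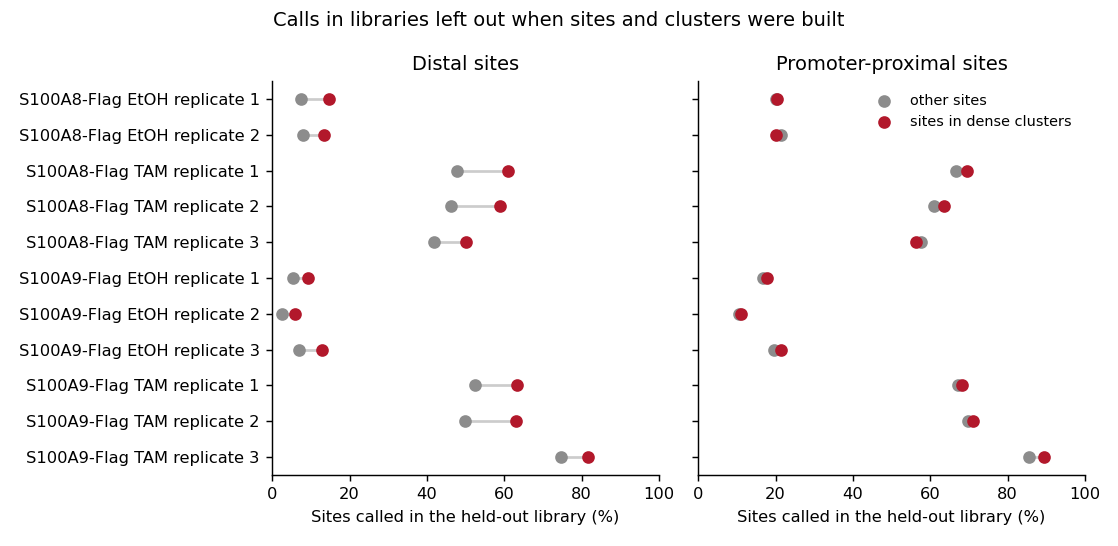
Percent of distal sites (left) and promoter-proximal sites (right) called in each library when sites and dense clusters were built from the other 10 libraries. Red points are sites in dense clusters and grey points other sites, joined by a line for each library. Red lies right of grey in 11 of 11 rows for distal sites, by 3.23 to 13.2 points, and in 9 of 11 rows for promoter-proximal sites.

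How this excess compares between treatments depends on the scale. As a ratio, cluster sites were called 1.28 to 1.46 times as often as other sites in the 5 EtOH libraries and 1.07 to 1.19 times as often in the 6 TAM libraries. The log2 ratio was 0.27 lower in TAM as a mean over both proteins (exact permutation test within protein, two-sided, p = 0.01, the smallest possible, adjusted p = 0.0167). It was lower by 0.23 for S100A8-Flag and by 0.31 for S100A9-Flag, where the smallest possible p values are 0.2 and 0.1. In percentage points the order was opposite, with a mean excess of 3.52 ± 1.14 in EtOH (SD, n = 5) and 7.68 ± 2.04 in TAM (SD, n = 6), 4.06 points more in TAM over both proteins (exact permutation test, p = 0.01). As an odds ratio the treatments did not separate, with 1.33 to 1.52 in EtOH and 1.23 to 1.502 in TAM (exact permutation test, p = 0.7). TAM libraries called at least 46.6% of the other sites and EtOH libraries at most 11.9%, which bounds the ratio in TAM from above. No change with treatment is therefore read from it. Among distal sites the log2 ratio was 0.62 lower in TAM (exact permutation test, p = 0.01), and among promoter-proximal sites the difference was 0.0023 (exact permutation test, p = 0.95). With the replicate block, EtOH and TAM libraries of the same number being paired, the log2 ratio was 0.27 lower in TAM (exact sign-flip test, two-sided, p = 0.0625, the smallest that 5 pairs allow).

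No difference between the proteins passed the test. The log2 ratio of S100A9-Flag minus that of S100A8-Flag was −0.0082 over both treatments (exact permutation test, two-sided, p = 0.84, adjusted p = 0.84). It was 0.04 in EtOH and −0.05 in TAM, while the SD between replicates was 0.05 to 0.12.

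Whether peaks in clusters ranked above or below others depended on the measure of strength. In each library left out, peaks with q ≤ 1e-07 were ranked by fold enrichment on a percentile scale. Peaks over cluster sites ranked lower than peaks over other sites in 11 of 11 libraries, with differences of −5.23 to −0.11 percentiles and a mean of −2.08 ± 1.51 (SD, n = 11; exact sign-flip test, two-sided, p = 0.000977, adjusted p = 0.00244). Ranked by −log10 q instead, they stood 1.70 percentiles higher (exact sign-flip test, p = 0.00781). With a stitching distance of 5 kb the difference in fold percentile was −1.12 and missed the threshold (exact sign-flip test, p = 0.294).

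Motif content differed between cluster sites and other sites. Exact matches on either strand were counted in windows of equal length, reaching 100 bp to each side of a summit. Of all union sites, 26.0% held AP-1, 13.4% ETS, 11.8% C/EBP, 11.2% CTCF, 10.7% KLF/SP1, 4.51% RUNX, 3.38% TEAD, 1.24% CREB, and 1.24% STAT. AP-1 was found at 29.4% of the 1959 distal cluster sites (95% Wilson interval, 27.4 to 31.4%), against 35.0% (34.4 to 35.7%) of the 19424 other distal sites and 34.5% of all distal sites. With equal peak numbers in all libraries, which left 1 cluster, this difference turned to 4.62 points in favor of the cluster. KLF/SP1 was found at 8.68% (7.51 to 10%) of distal cluster sites against 4.09%, and CREB (TGACGTCA) at 0.970% (0.622 to 1.51%) against 0.479%. C/EBP was found at 11.6% (10.3 to 13.1%) against 14.9% (14.4 to 15.4%), and ETS at 8.58% (7.42 to 9.9%) against 7.04% (6.69 to 7.41%). Distal cluster sites were more GC-rich, with a median of 57.2% against 52.7%, and its part in these shares was not tested. CTCF at 11.6% against 13.3%, RUNX (TGTGGTT) at 4.54% against 5.60%, TEAD at 4.29% against 4.15%, and STAT (TTCCNGGAA) at 1.79% against 1.33% had intervals that overlapped. The other sites include groups of 2 to 4 sites. At distal sites of these groups, C/EBP at 13.6% (12.9 to 14.4%) and ETS at 7.54% (7 to 8.11%) had intervals overlapping those of clusters. AP-1 at 32.5% (31.5 to 33.5%), KLF/SP1 at 5.01% (4.57 to 5.48%), and CREB at 0.391% (0.28 to 0.546%) did not. At single distal sites AP-1 was found at 37.1%.

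At promoters the direction for AP-1 was the opposite. It was found at 10.2% (8.17 to 12.6%) of the 707 promoter-proximal cluster sites and at 5.32% (4.86 to 5.83%) of others. ETS was less frequent, 22.6% (19.7 to 25.9%) against 28.8%, and CREB likewise, 1.27% (0.671 to 2.40%) against 3.10%. At promoter-proximal sites of groups of 2 to 4, ETS at 25.4% (24.1 to 26.9%) and CREB at 2.54% (2.09 to 3.1%) had intervals overlapping those of clusters. AP-1 at 6.8% (6.04 to 7.65%) did not. Over whole clusters, 191 of 415 had AP-1 at 2 or more sites and 91 had none, and the LAMB3 cluster had 7 such sites. Distal cluster sites with AP-1 were called in 10.8% of cases per EtOH library and 68.6% per TAM library on average. Other distal sites with AP-1 were called in 4.71% and 60.6%. Distal sites with neither AP-1 nor CTCF also had higher shares in clusters, 11.6% against 6.97% in EtOH and 64.6% against 58.5% in TAM, and the selection used all of these calls.

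**Figure D4:**
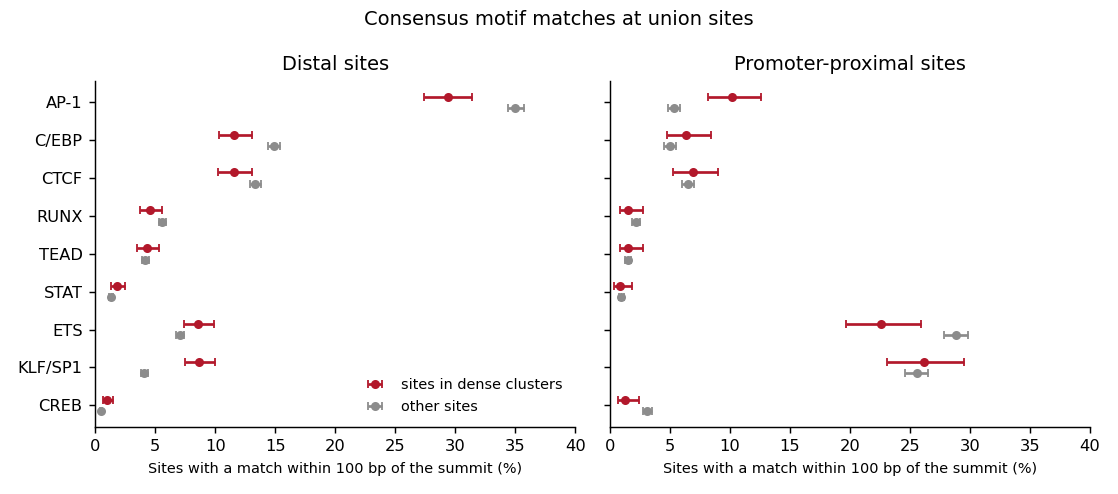
Percent of distal (left) and promoter-proximal (right) sites with a match to each consensus motif within 100 bp of the summit. Red is sites in dense clusters, grey is other sites, and bars are 95% Wilson intervals, which cover counting error only. AP-1 is lower in clusters at distal sites (29.4% against 35.0%) and higher at promoter-proximal sites (10.2% against 5.32%), and KLF/SP1 is higher at distal cluster sites.

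Clusters lay over 793 of 20098 protein-coding genes (3.95%), and 1507 genes (7.5%) had a TSS within 50 kb of one. A gene counted where any part of its body overlapped a cluster, so that few of the cluster's sites may lie over it. Genes over clusters were shorter than other genes, with a median length of 13227 against 28134 bp. Of 178 genes in 14 lists on epithelial and inflammatory biology, 28 (15.7%) had their body over one of 27 clusters. Of the 16 genes of other lineages, such as albumin and hemoglobin β, 1 did (GFAP, an astrocyte filament protein). This is 6.25%, against 3.95% of all protein-coding genes. The lists were chosen with earlier results of these data known, so that their shares are only described.

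The S100 list had 13 of its 17 genes over clusters (76.5%), all on chromosome 1 and in 5 clusters, so that these genes are not separate cases. The list holds the genes of the tagged proteins and was chosen for them. Besides the cluster of S100A9, S100A12, and S100A8 and that of S100A6, S100A5, S100A4, and S100A3, a cluster of 10 sites lay over S100A16, S100A14, S100A13, and S100A1. Clusters of 5 sites lay over S100A10 and S100A11. In the 5 clusters the mean share of sites called lay between 8 and 27.3% in EtOH and between 73.3 and 77.8% in TAM.

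The list named epithelial transcription factors had 6 of its 17 genes over clusters. GRHL3, ELF3, and TFAP2A are regulators of epithelial differentiation, and BHLHE40, MAFK, and ETS2 are other transcription factors of that list. In the gene or within 1500 bp of it lay all 8 sites of the TFAP2A cluster, but 1 of 7 at ELF3 and 1 of 5 at ETS2. At BHLHE40 EtOH libraries called a mean of 28.9% of 9 sites, and at GRHL3, whose 6 sites were all distal, 3.33%. Laminin, integrin, and hemidesmosome genes had 4 of 14, which were LAMB3, ITGA3, ITGA5, and PLEC (plectin, a linker of keratin filaments to hemidesmosomes). All 9 sites of the PLEC cluster lay in the gene or within 1500 bp of it, and EtOH libraries called a mean of 31.1% of them. Keratins had 2 of 14, KRT7 and KRT80, in the same cluster.

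Of signaling genes, NF-kB subunits and inhibitors had 3 of 11 (NFKB2, BCL3, and NFKBIE), AP-1 subunits 2 of 11 (JUNB and FOSL1), and IL6 and STAT3 signaling 2 of 12 (IL6R and SOCS3). All 6 sites of the IL6R cluster were distal, lay over the gene, and 5 of them held AP-1. The JUNB cluster had 11 sites, of which 7 were called in 1 or more EtOH libraries. At BCL3, a nuclear IkB protein, TAM libraries called a mean of 93.3% of 5 sites. EGF receptors and ligands had 2 of 10 (ERBB2 and HBEGF) and ERK feedback 1 of 11 (DUSP1). The list of chemokines and interleukin-1 had 1 of 14, IL24, a cytokine of neither kind. The ERBB2 cluster overlapped only the end of the gene, with 1 of its 5 sites in the gene or within 1500 bp of it. For HBEGF these were 2 of 6 sites. At DUSP1, a phosphatase of MAP kinases, the means were 35% in EtOH and 85.4% in TAM over 8 sites.

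The list of Src family and focal adhesion had 2 of 12 genes over clusters (PXN and PTK2B), and the list of 16 genes of matrix proteases and plasminogen activation included PLAU and MMP14. In the gene or within 1500 bp of it lay 1 of 7 sites of the PLAU cluster and 3 of 5 of the MMP14 cluster. No site of the PXN, PTK2B, or MMP14 clusters was called in EtOH, as in 37 of all 415 clusters (8.92%), and the mean share in EtOH was 2.86% at PLAU and at IL24. TAM libraries called a mean of 51.5 to 80% of the sites of the PXN, PTK2B, MMP14, PLAU, and IL24 clusters. None of the 10 genes of epithelial-mesenchymal transition, the 13 of TGF-β and SMAD, and the 13 of YAP, TEAD, and targets lay over a cluster. These lists have median gene lengths of 86140, 80614, and 42544 bp. In the lists with genes over clusters the medians ran from 4114 bp (S100 family) to 76163 bp (Src family and focal adhesion). The part of length in the counts was not tested.

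**Figure D5:**
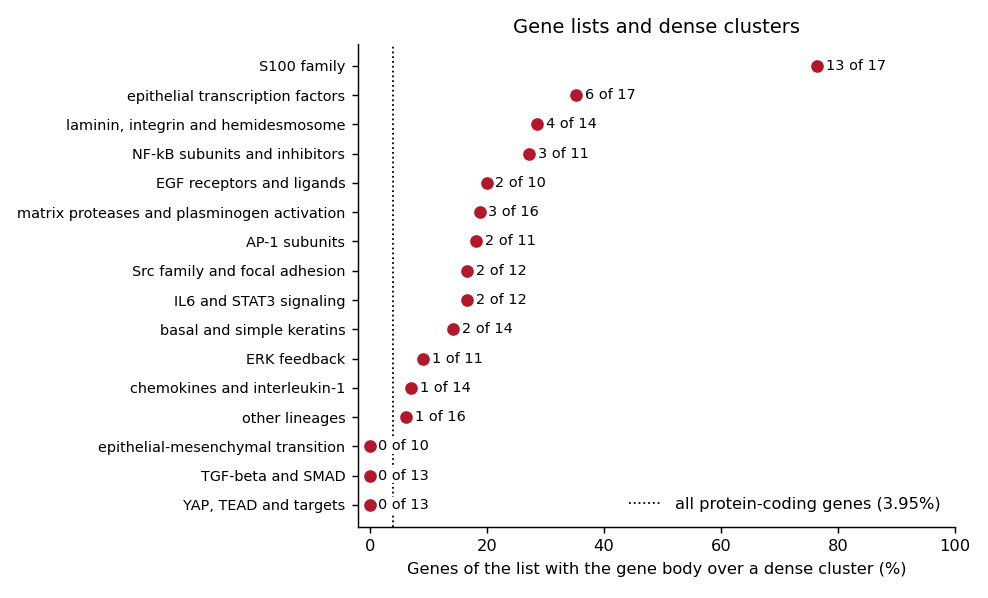
Percent of the genes of each list whose body lies over a dense cluster, with the number of genes over clusters and in the list. The dashed line is the share of all 20098 protein-coding genes (3.95%). The S100 family is highest with 13 of 17 genes, which lie in 5 clusters, and 3 lists have none.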

How the data were processed

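Chromatin from MCF-10A–ER-Src cells was precipitated with anti-Flag, and 11 peak lists were used. The authors aligned reads to GRCh37 (hg19) with Bowtie2 and called peaks per library with MACS2 against input (versions not given in the sources used here). Each deposited list gives each peak's fold enrichment against input and its p-value and q-value as −log10, and reaches to q ≤ 0.05. Read depth is unknown, and the number of peaks limits the precision.

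From the autosomes and X, peaks that reached q ≤ 1e-07 were merged by 1 bp of overlap within each condition, kept where 2 or more replicates had one, and merged over the 4 conditions. The summit was that of the peak with the lowest q. Summits up to 12498 bp apart were stitched, the limit lying between this gap and the next wider one, 12504 bp. Genes were from GENCODE 44 lifted to GRCh37. Sequences were read from GRCh37, and tRNA gene names from RefSeq. The cluster members and gene lists were chosen with earlier results of these data known.

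For tests, sites and clusters were rebuilt without the library in which calls were counted. Exact sign-flip tests over libraries and exact permutation tests of treatment within protein, or of protein within treatment, were two-sided, with Benjamini-Hochberg adjustment over 5 tests. Replicates are separate samples by their labels. Deviations in calls of EtOH and TAM libraries of the same replicate number had correlations of −0.0145 to 0.00489, so that the calls showed no pairing by number. Peak calls cannot tell whether samples of the same number were prepared together, so that the result with the replicate block is given as well. The clusters named were the 10 with the most sites, those within 50 kb of S100A8 or S100A9, and the 5 with the highest share of sites called in EtOH (ties went to more sites, then to the shorter span). The genes named were list members with their body over a cluster; others were chosen after their values were seen. A list member and its cluster are not reported here. Intervals are 95% Wilson intervals and cover counting error only. Steps were tested on simulated data. Alternatives were other thresholds, stitching distances, cluster sizes, and peak numbers, and each library left out. numpy 2.4.6, scipy 1.17.1, pandas 2.3.3, pysam 0.24.0, and matplotlib 3.10.9 were used.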

Additional observations from a re-analysis of the deposited data

How the results depend on the processing

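The number of clusters was 413 with 50 bp of overlap, but moved with most other thresholds. In place of 415 clusters with 8.79% of the union sites over 3.95% of the genes, there were 127 (4.21%, 1.23%) at q ≤ 1e-10, 65 (2.87%, 0.677%) with sites in every replicate, 89 (1.64%, 0.567%) at a stitching distance of 5 kb, and 923 (22.6%, 12.9%) at 25 kb. There were 822 (14.2%, 6.88%) with 4 or more sites, 30 (1.15%, 0.552%) with 10 or more, 205 (5.84%, 0.985%) from distal sites only, and 1 (0.267%, 0.00498%) with equal peak numbers in all libraries. With summits within 1 kb as 1 site the shares were 7.2% of sites and 3.27% of genes, and 7.5% of genes had a TSS within 50 kb. Leaving out single libraries gave 229 to 416 clusters, 6.23 to 8.81% of sites, and 2.13 to 3.98% of genes, the lowest without S100A9-Flag TAM replicate 3 for the number of clusters (229) and genes (2.13%).

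The higher call share of cluster sites in libraries left out kept its direction and stayed past the threshold in all 24 alternatives run, and was 5.82 to 7.04 points without single libraries. The lower log2 ratio in TAM was −0.326 to −0.238 without single libraries. With the replicate block it was −0.266 (exact p = 0.0625), as a log2 odds ratio −0.0277, in percentage points 4.06, and at promoter-proximal sites 0.00229, the last 3 scales or subsets being chosen after seeing the data, as were the GC, width, and distal splits. The block left the difference in own clusters at equal peak number at −0.119 (exact p = 0.75). The fold percentile difference was −1.12 at 5 kb (exact p = 0.294), 1.7 when ranked by −log10 q, and −2.5 to −1.58 without single libraries.

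The difference between proteins missed the threshold throughout and turned to 0.167 at q ≤ 1e-10, 0.0884 at 5 kb, 0.00492 at 25 kb, 0.0157 with 4 or more sites, 0.191 with 10 or more, and 0.0532 with distal sites, with −0.0439 to 0.101 without single libraries. The TAM minus EtOH difference at equal peak number turned to 0.0585 at 25 kb and 0.027 with 4 or more peaks, and was −0.171 to −0.0225 without single libraries. The promoter-proximal difference of −3.25 points was −6.32 at q ≤ 1e-10, −11.1 in every replicate, −6.4 at 5 kb, −1.25 at 25 kb, −1.21 with 10 or more sites, −33.2 at equal peak number, 0.586 with 2 kb on either side of a TSS, and −6.73 to −2.6 without single libraries (−4.96, −6.14, and −6.73 without S100A9-Flag TAM replicates 1, 2, and 3). The AP-1 difference at distal sites of −5.67 points was −9.54 in every replicate, −9.48 at 5 kb, −15.2 with 10 or more sites, 4.62 at equal peak number, where there is 1 cluster, and −6.65 to −4.68 without single libraries. The causes were not tested. At equal peak number the tests on libraries left out were not run, for want of cluster sites. The number of peaks, and with it an unknown depth, limits which clusters can be seen.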

Other observations

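A tRNA gene motif was more frequent in clusters, a pattern chosen after seeing the data. The first 7 bases of the B box of tRNA genes (GGTTCGA, both strands, within 100 bp of the summit) were found at 45 of 2666 cluster sites (1.69%) and at 185 of 27656 other sites (0.669%), against 0.759% of all union sites. Among cluster sites the share was 0.922% where no EtOH library called the site, 2.26% where 1 did, and 3.66% where 2 or more did. Among other sites it was 0.473, 0.764, and 1.71%. A match was found in 31 clusters, and 4 clusters had 3 or more matching sites. These lay over FCGR2A and HSPA6 (4 of 5 sites), CTC1 (4 of 6), TRIM7 and TRIM41 (3 of 7), and near BTN3A2 (3 of 8). RefSeq lists 5 tRNA genes between TRIM7 and TRIM41 and 1 between FCGR2A and HSPA6. The latter count ends with HSPA6 at position 161496684, whereas the cluster runs on to 161510289. The rest of that cluster and the clusters at CTC1 and BTN3A2 were not searched for tRNA genes. The first and the third of these clusters are also among those with the highest share of sites called in EtOH.

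Single clusters differed in TAM calls between the proteins, and are given here as examples from both ends of the differences, chosen after seeing them and with no test. The mean share of sites called was higher in S100A9-Flag TAM than in S100A8-Flag TAM by 66.7 points at GPA33 and by 53.3 points at CCND1 (cyclin D1) and at DAG1. At ANKLE2 the difference was −46.7 points and near COL4A2 −44.4 points. Each of these clusters has 5 or 6 sites, so that 1 call is a large step.

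The shortest cluster, 5 sites within 3809 bp over JADE2, had 77.5% of its span covered by sites, the highest share of the 415.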
